A study of Mus musculus with 12 samples.

Results

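The CXC chemokines were followed in mouse bone marrow macrophages as 9 genes: Cxcl1, Cxcl2, Cxcl3, Cxcl5, Cxcl9, Cxcl10, Cxcl12, Cxcl14 and Cxcl16. They were taken as the probe sets of the array whose only annotated gene symbol was 1 of these names, which gave 16 probe sets of 45101, and 15 of the 16 passed the filter on low signal, as did 27931 probe sets in all. The macrophages were wild type (WT) or IRAK4 kinase dead (KD), and no genotype beyond that name is given in the labels. Each strain was kept 4 h without stimulation, stimulated with 1 µg/ml LPS for 1 h, or stimulated with it for 4 h, and each of these 6 groups was measured on 2 arrays. All 12 cultures had grown in serum-containing macrophage medium with conditioned medium of L-929 cells, a fibroblast line that supplies macrophage colony-stimulating factor. The labels call the arrays of a group biological replicates without naming separate animals, so p-values measure the spread between these arrays, which may be technical. Since the unstimulated cultures were kept for 4 h, LPS and time in culture differ together in every comparison of 1 h with no stimulation.

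CXC chemokines are small secreted proteins that attract leukocytes through receptors with a heptahelical, G protein-coupled fold. The mouse ligands Cxcl1, Cxcl2, Cxcl3 and Cxcl5 act on Cxcr2 and draw neutrophils, whereas Cxcl9 and Cxcl10 are induced by interferons, act on Cxcr3 and draw activated T cells and NK cells. In macrophages, LPS is sensed by Toll-like receptor 4, which signals through MyD88 and IRAK4 towards NF-κB and MAP kinases, and through TRIF towards IRF3 and interferon-β. The kinase dead animals keep an IRAK4 protein without catalytic activity. The comparison of the strains asks which chemokine transcripts differ between them, and whether a difference follows from that activity was not tested.

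Signals are the deposited probe set intensities, and all changes are differences of log2(signal + 4.4) between group means with the standard error (SE) of a limma fit over all 12 arrays. A gene was called at an adjusted p under 0.05 (limma, Benjamini-Hochberg over all 27931 probe sets tested). On every array the trimmed mean was 150, while the median signal of an array was 18.9 to 22 for WT cells and 24.2 to 26.9 for KD cells. KD unstimulated replicate 1 had the highest 3' to 5' ratios of the control genes (log2 ratios of 1.35 for Gapdh and 3.04 for Actb), against 0.807 to 1.17 and 2.22 to 2.85 on the other 11 arrays. The summed signal of 8 macrophage markers was 17850 to 18390 in unstimulated WT and 21660 to 25920 in unstimulated KD cells, 19860 to 22810 and 23550 to 23740 at 1 h, and 20290 to 21900 and 20150 to 21630 at 4 h. Of these 8, 3 were called higher in KD without LPS (against 2.37% of probe sets tested) and 1 at 4 h (against 3.13%). The KD minus WT difference of the changes at 4 h was called negative for 2, Cd14 (-0.53) and Cd68 (-0.49), against 3.07% in either direction. Cd14 changed by 0.61 in WT (called) and by 0.08 in KD (not called). Cd68 changed by 0.13 in WT (not called) and by -0.36 in KD (called lower). The part of these 8 markers in the chemokine differences was not tested. The summed signal of 4 measured lymphocyte markers was 9.7 to 48.6. No probe set (0) carried the symbol Irak4, and the targeted gene could not serve as a check of the strain labels.

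Cxcl1, Cxcl2, Cxcl3 and Cxcl5 lie in 1 stretch of mouse chromosome 5, where the protein-coding genes follow each other as Cxcl5, Ppbp, Pf4, Cxcl3, Cxcl15, Cxcl1 and Cxcl2 in the RefSeq table of GRCm38.p6. The 250 bases before the start site of Cxcl1 (chr5:90890995-90891244, plus strand), Cxcl2 (chr5:90903649-90903898, plus strand) and Cxcl3 (chr5:90785851-90786100, plus strand) are shown because these genes share an identical run that matches the NF-κB consensus, printed in capitals.
Cxcl1: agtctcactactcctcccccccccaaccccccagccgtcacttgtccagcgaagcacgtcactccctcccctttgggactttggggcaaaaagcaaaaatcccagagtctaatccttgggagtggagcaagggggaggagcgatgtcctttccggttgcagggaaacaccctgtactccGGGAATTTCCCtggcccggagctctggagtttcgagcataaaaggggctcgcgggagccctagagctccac
Cxcl2: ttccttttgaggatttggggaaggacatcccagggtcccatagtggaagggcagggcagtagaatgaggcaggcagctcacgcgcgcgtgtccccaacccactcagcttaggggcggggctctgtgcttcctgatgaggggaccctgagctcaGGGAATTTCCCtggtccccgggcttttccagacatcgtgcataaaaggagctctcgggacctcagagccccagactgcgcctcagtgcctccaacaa
Cxcl3: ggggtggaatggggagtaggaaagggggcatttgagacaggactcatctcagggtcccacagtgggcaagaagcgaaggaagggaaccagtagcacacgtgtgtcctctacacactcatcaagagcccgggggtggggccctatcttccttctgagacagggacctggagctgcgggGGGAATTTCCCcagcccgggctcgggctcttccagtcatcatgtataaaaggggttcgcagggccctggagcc
In each of these RefSeq promoters the run matched the consensus on both strands, as 2 overlapping matches, at positions -71 to -61 of Cxcl1, -97 to -87 of Cxcl2 and -73 to -63 of Cxcl3. A match to the NF-κB consensus was found in 4.51% of the 32851 promoters in the table, in windows of 300 bases that also hold the 50 bases after the start. The Cxcl3 promoter held TATAAA at -30 to -25, a run found in 13.6% of promoters, and no match to the interferon-linked motifs GAAANNGAAA and TTCNNNGAA was found in these 3 promoters. The promoter of Cxcl14, a gene called in no comparison, also held GAAANNGAAA, at -172 to -163, and TTCNNNGAA, at -191 to -183, the latter found in 8.3% of promoters, and that of Cxcl12 held no match of any motif searched. Promoters matched 7 of the 9 genes, all except Cxcl5 and Cxcl16. A match is a match of letters and was not measured as a binding site.

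Cxcl1, the mouse counterpart of the human neutrophil attractant GROα, was already near its highest level after 1 h in both strains and was lower in KD cells at 4 h. The WT signals were 110.0 and 110.3 without LPS, 5054.1 and 5253.0 at 1 h, and 6302.0 and 5895.9 at 4 h. The KD signals were 112.3 and 71.6 without LPS, 4733.3 and 4555.2 at 1 h, and 3418.9 and 3432.6 at 4 h. The unstimulated arrays of the strains overlapped, the KD arrays at 1 h lay just under the WT arrays at 1 h, and the KD arrays at 4 h were the lowest of all stimulated arrays. The response at 1 h was 5.49 ± 0.14 in WT and 5.63 ± 0.14 in KD on the log2 scale (SE, 2 arrays a group; adjusted p = 3.15e-15 and 2.05e-15). At 4 h the KD signal was 56.2% of the WT signal, a log2 difference of -0.83 ± 0.14 with a 95% interval of -1.12 to -0.55 and an adjusted p of 0.000918. At 1 h it was 90.1% of WT, and the log2 difference of -0.15 ± 0.14 was not called (95% interval -0.43 to 0.13, adjusted p = 0.696). From 1 h to 4 h the WT value moved by 0.24 ± 0.14 and the KD value by -0.44 ± 0.14, neither of them called (adjusted p = 0.27 and 0.0528). The difference of these 2 moves, -0.68 ± 0.19, was not called either (adjusted p = 0.153). All 3 Cxcl1 probe sets were called lower in KD at 4 h, with log2 differences of -0.83 to -0.71. From 1 h to 4 h in KD the 3 probe sets moved by -0.54 to -0.44, and 1 of them was called lower.

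Cxcl2, known as MIP-2 and also a ligand of Cxcr2, followed the same course from a higher starting signal on its own probe set. The WT signals were 437.0 and 366.0 without LPS, 5185.4 and 5175.6 at 1 h, and 6133.3 and 5608.4 at 4 h. The KD signals were 365.8 and 541.0 without LPS, 4960.0 and 4843.9 at 1 h, and 4186.7 and 4087.8 at 4 h. As with Cxcl1, the strains overlapped without LPS and separated by little at 1 h, and every KD array at 4 h was below every other stimulated array. The response at 1 h was 3.68 ± 0.13 in WT and 3.45 ± 0.13 in KD (adjusted p = 3.92e-13 and 1.8e-12). The strain difference was -0.08 ± 0.13 at 1 h (95% interval -0.35 to 0.19, adjusted p = 0.854) and -0.50 ± 0.13 at 4 h (95% interval -0.78 to -0.23, adjusted p = 0.0276), which left the KD signal at 70.5% of WT at 4 h. The call at 4 h is a near one, since it was lost without any 1 of the 4 arrays compared (adjusted p = 0.0737 to 0.239) and without the filter (0.0553). The signal of Cxcl1 and of Cxcl2 at 1 h stood at 31.1% to 41.2% of the highest signal of its array, with 0.315% to 0.67% of probe sets above it, and whether the arrays respond evenly at that height was not tested.

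**Figure D1:**
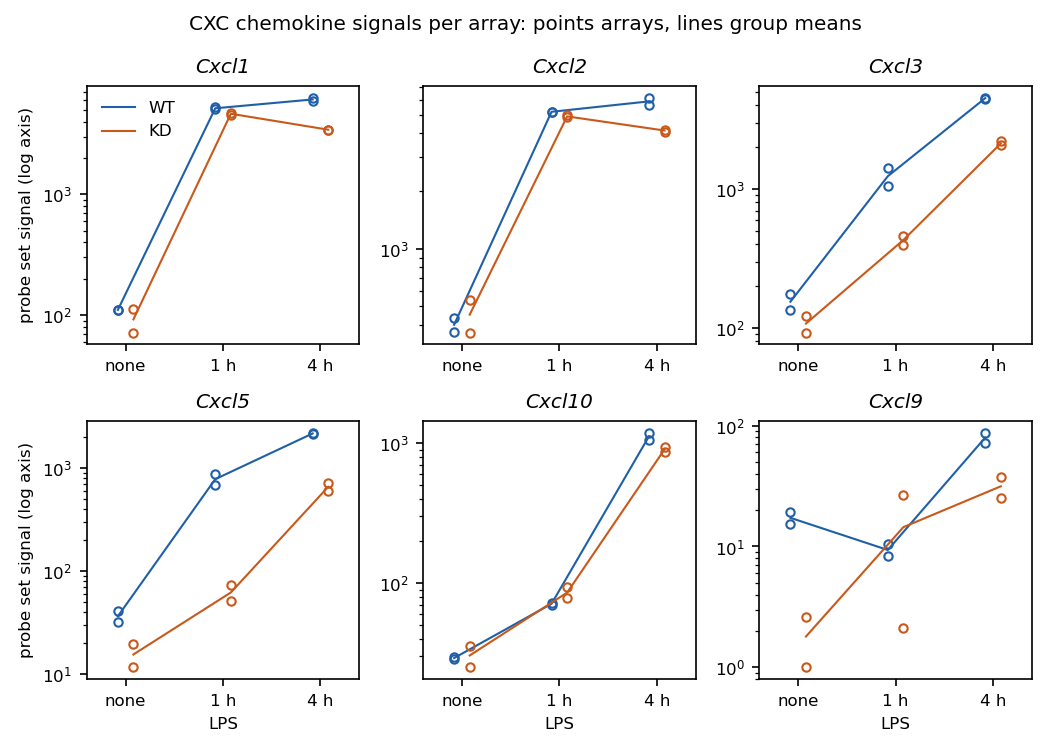
Probe set signal (log axis, different range in each panel) of Cxcl1, Cxcl2, Cxcl3, Cxcl5, Cxcl10 and Cxcl9 without LPS and after 1 h and 4 h of LPS. Open circles are arrays (2 per group), lines join group means, blue is WT and orange is KD. Cxcl1 and Cxcl2 reach 84.5% and 88.2% of their WT 4 h signal by 1 h, whereas Cxcl3, Cxcl5 and Cxcl10 reach 27.4%, 36.1% and 6.35%.

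Cxcl3, a further Cxcr2 ligand, rose in steps and was lower in KD cells at both times. The WT signals were 174.6 and 133.7 without LPS, 1418.4 and 1054.7 at 1 h, and 4543.9 and 4484.1 at 4 h. The KD signals were 92.5 and 122.2 without LPS, 398.1 and 460.3 at 1 h, and 2199.8 and 2059.8 at 4 h. No 2 of the 6 groups overlapped, and in each condition both KD arrays lay below both WT arrays. The strain difference was -0.51 ± 0.16 without LPS (adjusted p = 0.0728, not called), -1.51 ± 0.16 at 1 h (adjusted p = 2.86e-05) and -1.08 ± 0.16 at 4 h (adjusted p = 0.000271). The KD signal was therefore 34.7% of WT at 1 h and 47.2% at 4 h. Between 1 h and 4 h Cxcl3 rose by 1.88 ± 0.16 in WT and by 2.30 ± 0.16 in KD (adjusted p = 7.4e-08 and 1.22e-08).

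Cxcl5, which in mice is known as LIX and is also made by epithelial and stromal cells, had the largest strain difference of the 9 genes at 1 h and at 4 h. The WT signals were 40.7 and 32.4 without LPS, 872.6 and 688.0 at 1 h, and 2207.2 and 2120.6 at 4 h. The KD signals were 11.7 and 19.5 without LPS, 73.2 and 51.2 at 1 h, and 718.4 and 597.7 at 4 h. Both KD arrays were below both WT arrays in every condition, and the KD arrays at 4 h overlapped the WT arrays at 1 h. The strain difference was -1.05 ± 0.21 without LPS (adjusted p = 0.00671), -3.57 ± 0.21 at 1 h (95% interval -4.02 to -3.12, adjusted p = 4.38e-08) and -1.72 ± 0.21 at 4 h (95% interval -2.16 to -1.27, adjusted p = 5.21e-05). As a share of WT, the KD signal was 42.7% without LPS, 7.97% at 1 h and 30.4% at 4 h.

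For Cxcl5 the response to LPS itself also differed between the strains. The response at 1 h was 4.26 ± 0.21 in WT and 1.74 ± 0.21 in KD, and their difference (interaction) was -2.51 ± 0.30 with an adjusted p of 0.000773. From 1 h to 4 h Cxcl5 rose by 1.48 ± 0.21 in WT and by 3.33 ± 0.21 in KD, a KD minus WT difference of 1.85 ± 0.30 with an adjusted p of 0.00661. By 4 h the responses were 5.73 ± 0.21 and 5.07 ± 0.21, and their difference of -0.66 ± 0.30 was not called (adjusted p = 0.301). With a pseudocount at the median of all values it was -1.06 and called (adjusted p = 0.0173). The call on the step from 1 h to 4 h was lost without WT LPS 4 h replicate 1 (adjusted p = 0.0556) and without KD LPS 4 h replicate 1 (adjusted p = 0.0625). The call on unstimulated cells was lost without WT unstimulated replicate 1 (adjusted p = 0.113) and without KD unstimulated replicate 1 (adjusted p = 0.061). With a variance prior that ignores mean signal, the calls on unstimulated cells (adjusted p = 0.137), on the response at 1 h (0.288) and on the step from 1 h to 4 h (0.213) were all lost, while the strain differences at 1 h and 4 h stayed called (0.00696 and 0.023).

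Markers of stromal cells, which can make Cxcl5 and Cxcl12, moved with strain in unstimulated cells. The summed signal of 10 stromal markers was 3198 to 3302 in unstimulated WT and 1526 to 1848 in unstimulated KD cultures. At 1 h it was 3271 to 3336 in WT and 2590 to 3282 in KD, and at 4 h it was 2386 to 2579 in WT and 2706 to 3038 in KD. Of the 8 stromal markers tested, 4 were called lower in KD without LPS (against 2.87% of probe sets), 2 lower and 1 higher at 1 h, with a median difference of -0.33 (against 0.533% lower and 0.573% higher), and 2 higher at 4 h (against 3.13%). Col1a1, a fibrillar collagen, made up the largest part, with signals of 599.5 to 1451.1, and Lum stayed at 0.7 to 8.8 and Thy1 at 0.6 to 14.5. In such bulk samples fewer cells of a type and less RNA per cell cannot be told apart, and the part of these markers in the Cxcl5 differences was not tested at any time. The summed signal of 7 neutrophil markers was 804 to 977.2 in WT and 1777 to 2466 in KD, nearly all of it S100a8 (742 to 2390.2). S100a8 was the only 1 of 3 neutrophil markers tested that was called higher in KD. It was called without LPS (against 2.37% of probe sets), at 1 h (against 0.573%) and at 4 h (against 3.13%). The KD minus WT differences of Camp were -0.79 without LPS, -0.78 at 1 h and -0.37 at 4 h. Those of Elane were 0.65, 1.43 and -0.17 at the same times, and neither gene was called. Their part in the chemokine differences was not tested.

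Cxcl10, known as IP-10, rose late and to a similar extent in both strains. The 250 bases before its start (chr5:92348890-92349139, minus strand, written in the direction of transcription) are shown because they hold both NF-κB and interferon-linked matches, in capitals.
Cxcl10: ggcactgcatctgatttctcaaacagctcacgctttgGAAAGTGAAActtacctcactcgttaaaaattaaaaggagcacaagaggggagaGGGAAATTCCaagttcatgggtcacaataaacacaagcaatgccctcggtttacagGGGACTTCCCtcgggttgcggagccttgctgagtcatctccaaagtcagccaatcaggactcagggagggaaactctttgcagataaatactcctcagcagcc
The capitals mark GAAANNGAAA, the interferon-stimulated response element, at -213 to -204, and NF-κB matches at -159 to -150 and -103 to -94. The AP-1 motif TGANTCA also matched, at -74 to -68. Matches were found in 3.44% of promoters for the response element and in 7.81% for AP-1. The Cxcl9 promoter held neither an NF-κB match nor the response element.

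The WT signals of Cxcl10 were 28.7 and 29.6 without LPS, 72.1 and 70.3 at 1 h, and 1048.7 and 1194.3 at 4 h. The KD signals were 25.0 and 35.8 without LPS, 77.9 and 93.3 at 1 h, and 865.9 and 945.7 at 4 h. The strains overlapped without LPS, the KD arrays were above the WT arrays at 1 h and below them at 4 h. The response at 1 h was 1.17 ± 0.20 in WT and 1.38 ± 0.20 in KD (adjusted p = 0.000792 and 0.000165), and at 4 h it was 5.07 ± 0.20 and 4.73 ± 0.20 (adjusted p = 5.78e-13 and 3.27e-12). The strain difference was 0.25 ± 0.20 at 1 h (95% interval -0.17 to 0.66, adjusted p = 0.647) and -0.31 ± 0.20 at 4 h (95% interval -0.72 to 0.11, adjusted p = 0.449). Neither was called, and the interval at 4 h leaves room for a KD level lower by up to 0.72 on the log2 scale. The 95% intervals of the strain difference at 1 h did not overlap between Cxcl10 and either Cxcl3 or Cxcl5, and at 4 h they did not overlap between Cxcl10 and Cxcl3 or Cxcl5 but overlapped with those of Cxcl1 and Cxcl2. The difference between genes was not tested in itself.

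Cxcl9, known as MIG and best induced by interferon-γ, stayed low. The WT signals were 19.2 and 15.3 without LPS, 8.3 and 10.4 at 1 h, and 71.7 and 87.5 at 4 h, and the KD signals were 1.0 and 2.6, 2.1 and 26.8, and 37.5 and 25.4. The 4 h arrays were the highest of each strain except that KD LPS 1 h replicate 2 lay among the KD 4 h arrays. The unstimulated KD signals were below the pseudocount of 4.4, so the size of the KD change depends on it and ran from 1.11 to 3.57 over the settings that kept all arrays. At the pseudocount of 4.4 the rise from no LPS to 4 h was 1.96 ± 0.65 in WT (adjusted p = 0.0439) and 2.52 ± 0.65 in KD (adjusted p = 0.0158), and the strain difference at 4 h was -1.24 ± 0.65 (95% interval -2.60 to 0.12, adjusted p = 0.327). The WT call was lost without the filter (adjusted p = 0.0778), with a pseudocount of 1 (0.121) and without any 1 of the 4 arrays compared (0.139 to 0.217). The KD call was lost with the variance prior that ignores mean signal (0.0631), without KD unstimulated replicate 1 (0.0636) and without either KD 4 h array (0.145 and 0.052). A further Cxcl9 probe set did not pass the filter, with group means of 8.85 to 26.2.

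**Figure D2:**
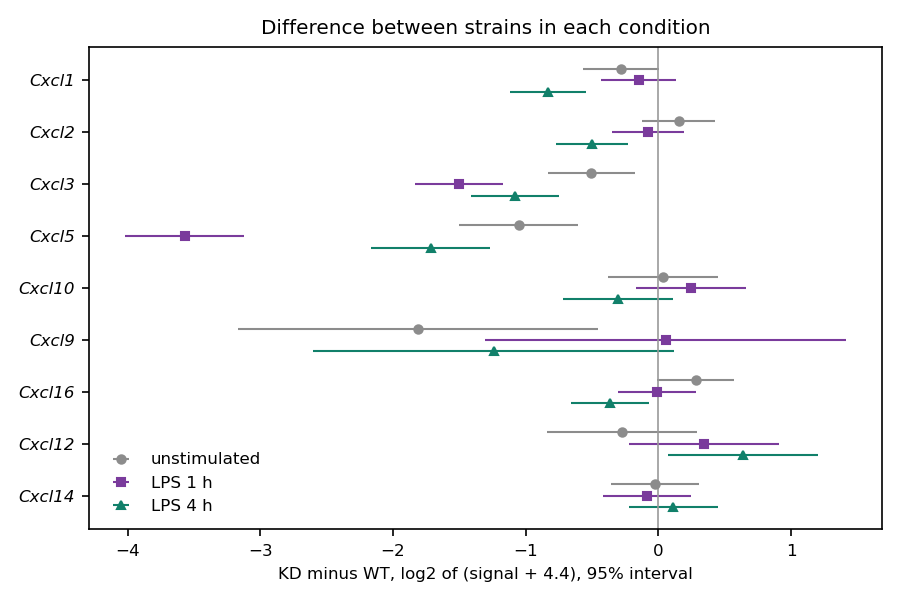
KD minus WT difference of log2(signal + 4.4) for the 9 genes without LPS (grey circles), at 1 h (purple squares) and at 4 h (green triangles) of LPS, with 95% intervals from the limma fit. The intervals of Cxcl3 and Cxcl5 lie wholly left of 0 at 1 h and 4 h, and those of Cxcl1, Cxcl2 and Cxcl16 do so at 4 h and include 0 at 1 h. That of Cxcl12 lies wholly right of 0 at 4 h, those of Cxcl9, Cxcl10 and Cxcl14 include 0 at both times, and neither Cxcl16 nor Cxcl12 was called at 4 h (adjusted p = 0.153 and 0.206).

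Among all 9 genes, KD cells were lower than WT for 1 gene without LPS (Cxcl5), against 2.87% of probe sets tested. They were lower for 2 genes at 1 h (Cxcl3 and Cxcl5), against 0.533% of probe sets, and for 4 genes at 4 h (Cxcl1, Cxcl2, Cxcl3 and Cxcl5), against 2.24%, and no member was called higher. All the called members were Cxcr2 ligands, 4 of 4 at 4 h. Of the 2 interferon-linked genes, 0 were called in any strain difference by limma. At an unadjusted limma p under 0.05 there were 0 of 2 at 1 h and at 4 h, and 1 of 2, Cxcl9, without LPS. For Cxcl9, with its low signal and wide SE, the absence of a call says little. Its 4 h difference of -1.24 ± 0.65 was larger in size than those of Cxcl1, Cxcl2 and Cxcl3 (-0.83, -0.50 and -1.08). Without KD LPS 1 h replicate 1, Cxcl9 was called lower in unstimulated KD cells (-1.81, adjusted p = 0.0445). The response to LPS at 1 h was called lower in KD for 1 gene, Cxcl5, against 0.15% of probe sets. The response at 4 h differed for 0 of 9 genes by limma, against 3.07% of probe sets in either direction, and 6 of 9 had an unadjusted p under 0.05. The step from 1 h to 4 h was called higher in KD for 1 gene, Cxcl5, against 0.286%. These comparisons share arrays: both responses use the same unstimulated cultures.

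Some of these counts moved with single arrays or settings. With a variance prior that ignores mean signal, the counts fell to 0 without LPS, 1 at 1 h (Cxcl5) and 1 at 4 h (Cxcl5), where Cxcl1 had an adjusted p of 0.0805 and Cxcl3 of 0.0508. The count without LPS was 0 without WT unstimulated replicate 1 and 2 without any 1 of WT unstimulated replicate 2, KD unstimulated replicate 1, KD unstimulated replicate 2 and KD LPS 1 h replicate 1. Without KD unstimulated replicate 1 these were Cxcl1, lower in KD, and Cxcl2, higher in KD, and Cxcl5 was not called. The count of responses that differed at 4 h was 3 without KD unstimulated replicate 1 (Cxcl2, Cxcl12 and Cxcl16), the array with the highest 3' to 5' ratios, and 1 without KD unstimulated replicate 2 (Cxcl1). That of responses that differed at 1 h was 2 without KD unstimulated replicate 1 (Cxcl3 and Cxcl5). The count for the step from 1 h to 4 h was 2 without either KD unstimulated array (Cxcl1 and Cxcl5) and 0 without WT LPS 4 h replicate 1 or KD LPS 4 h replicate 1.

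**Figure D3:**
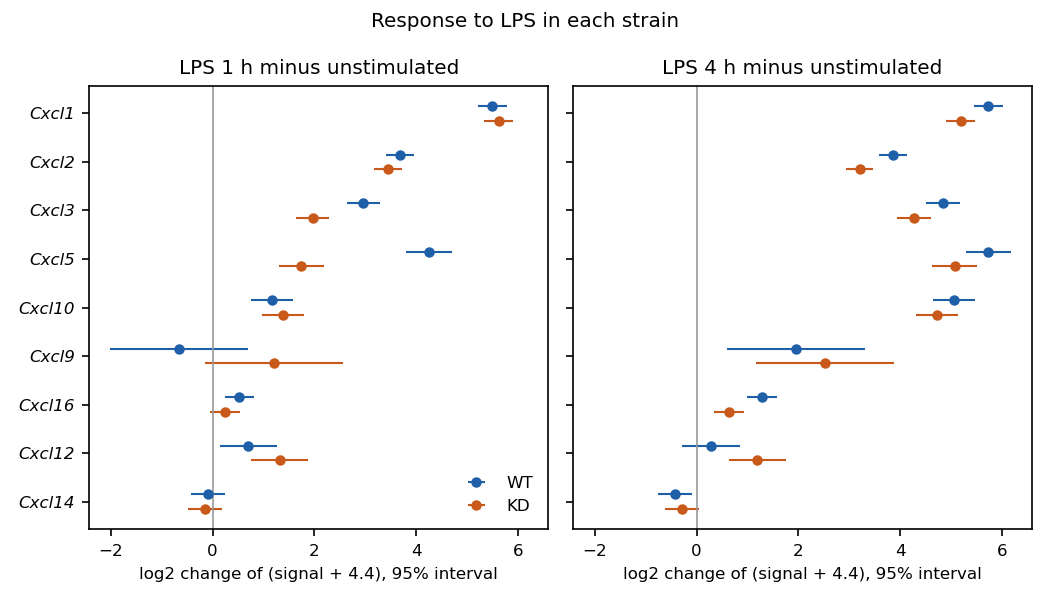
Change of log2(signal + 4.4) from no LPS to 1 h (left) and to 4 h (right) of LPS for the 9 genes in WT (blue) and KD (orange), with 95% intervals from the limma fit. At 1 h Cxcl5 stands at 4.26 in WT and 1.74 in KD, whereas Cxcl1 and Cxcl10 are close in both strains, and at 4 h Cxcl1, Cxcl3, Cxcl5 and Cxcl10 exceed 4 in both strains.

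Counted by strain, LPS raised 6 of the 9 genes in WT at 1 h (Cxcl1, Cxcl2, Cxcl3, Cxcl5, Cxcl10 and Cxcl16), against 2.89% of probe sets, and 7 at 4 h, with Cxcl9 added, against 6.95%. In KD it raised 6 at 1 h, with Cxcl12 in place of Cxcl16, against 3.17%, and 8 at 4 h, against 5.3%, Cxcl14 being the exception. The KD count at 4 h was 5 with the variance prior that ignores mean signal, where Cxcl9, Cxcl12 and Cxcl16 were not called. From 1 h to 4 h a further rise was called for 5 genes in WT (Cxcl3, Cxcl5, Cxcl9, Cxcl10 and Cxcl16), against 7.1%, and for 3 in KD (Cxcl3, Cxcl5 and Cxcl10), against 4.55%. The KD count of 3 became 5 without either KD unstimulated array, as Cxcl1 was then called lower and Cxcl16 higher. By the representative probe sets, no comparison called a member lower with LPS. Of the 3 Cxcl1 probe sets, 1 was called lower from 1 h to 4 h in KD. At 4 h the median change of the 4 Cxcr2 ligands was 5.29 in WT and 4.67 in KD, beside -0.12 and -0.05 for all probe sets tested.

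Cxcl16, a transmembrane chemokine that also binds oxidised lipoprotein, rose modestly. The WT signals were 331.4 and 319.5 without LPS, 446.7 and 497.0 at 1 h, and 812.7 and 785.4 at 4 h, and the KD signals were 341.5 and 459.1, 457.3 and 479.3, and 575.0 and 666.1. Both WT arrays at 4 h were above both KD arrays at 4 h, and the strains overlapped at 1 h. The rise to 4 h was 1.28 ± 0.14 in WT (adjusted p = 1.35e-06) and 0.64 ± 0.14 in KD (adjusted p = 0.0048), and the difference of these rises, -0.65 ± 0.20, was not called (adjusted p = 0.0894). The KD call was lost without KD unstimulated replicate 1 (adjusted p = 0.0828) and without KD LPS 4 h replicate 2 (0.0809), and the WT call at 1 h (0.53 ± 0.14, adjusted p = 0.0284) was lost without either WT unstimulated array (0.128 and 0.154) and without WT LPS 1 h replicate 2 (0.212). Of Adam10 and Adam17, the proteases known to shed Cxcl16, Adam17 rose by 0.62 ± 0.10 in WT at 4 h (adjusted p = 0.000136) and Adam10 fell by 0.30 ± 0.08 (adjusted p = 0.0149). In KD at 4 h Adam17 rose by 0.72 ± 0.10 (limma adjusted p = 5.28e-05), and the Adam10 change of -0.04 ± 0.08 was not called (0.833). The strain difference of the 4 h change was called for neither (limma adjusted p = 0.808 for Adam17 and 0.296 for Adam10).

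Cxcl12, the stromal chemokine SDF-1, had called rises only in KD cells, and the strain difference in its response was not called. Its WT signals were 83.8 and 81.8 without LPS, 121.8 and 154.4 at 1 h, and 101.7 and 101.8 at 4 h, and its KD signals were 96.9 and 46.9, 209.6 and 146.5, and 172.6 and 149.6. The unstimulated KD arrays lay on both sides of the WT arrays, and replicate 2 was the lowest of all 12 arrays. The KD rise was 1.32 ± 0.27 at 1 h (adjusted p = 0.00501) and 1.20 ± 0.27 at 4 h (adjusted p = 0.00601), and without KD unstimulated replicate 2 it was 0.83 and 0.70 (adjusted p = 0.0932 and 0.124). The calls were also lost without KD LPS 1 h replicate 1 (adjusted p = 0.0981) and without KD LPS 4 h replicate 1 (adjusted p = 0.0752), each for its own time. The strain difference was 0.34 ± 0.27 at 1 h and 0.64 ± 0.27 at 4 h, neither called (adjusted p = 0.639 and 0.206). In WT the change was 0.70 ± 0.27 at 1 h and 0.28 ± 0.27 at 4 h, neither called (limma adjusted p = 0.15 and 0.557). The KD minus WT difference of the responses was 0.62 ± 0.38 at 1 h and 0.91 ± 0.38 at 4 h. With all 12 arrays neither of these was called (limma adjusted p = 0.599 and 0.243). The other 2 Cxcl12 probe sets were low and not called, and the mean of all 3 gave KD rises of 0.63 and 0.78 (adjusted p = 0.521 and 0.343). The stromal marker sum moved the same way in KD, from 1526 to 1848 without LPS to 2590 to 3282 at 1 h, and 4 of the 8 stromal markers tested were called higher in KD at 1 h (against 3.17% of probe sets) and at 4 h (against 5.3%). In WT 0 of 8 were called higher by limma, and 2 of 8 were called lower at 4 h (against 10.2%). Their part in the Cxcl12 result was not tested.

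**Figure D4:**
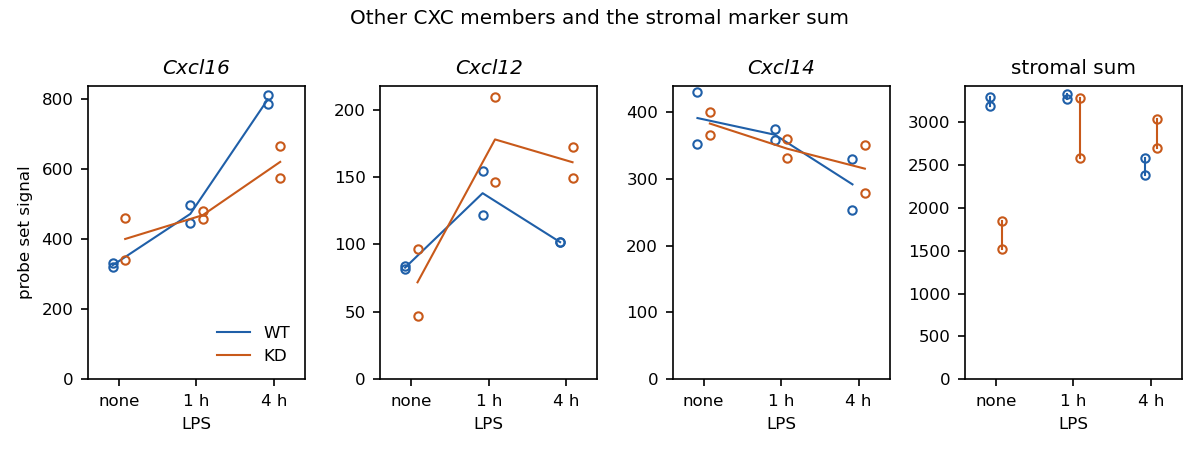
Probe set signal (linear axis from 0) of Cxcl16, Cxcl12 and Cxcl14 without LPS and after 1 h and 4 h of LPS, and, at the right, the summed signal of 10 stromal markers. Circles are arrays (2 per group), lines in the gene panels join group means, bars at the right join the arrays of a group, blue is WT and orange is KD. The stromal sum is lowest in unstimulated KD cells (1526 to 1848). The Cxcl12 arrays of that group are at 96.9 and 46.9, on both sides of the unstimulated WT arrays (83.8 and 81.8).

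Cxcl14, a chemokine made constitutively in many tissues, was not called in any of the 12 comparisons by limma. Its signals were 430.9 and 352.4 in unstimulated WT, 358.0 and 375.1 at 1 h and 254.4 and 329.9 at 4 h, against 400.1 and 366.7, 359.7 and 331.5, and 351.6 and 279.8 in KD. The strains overlapped in every condition. The strain difference was -0.08 ± 0.16 at 1 h (95% interval -0.42 to 0.25) and 0.11 ± 0.16 at 4 h (95% interval -0.22 to 0.45). The fall of 0.42 ± 0.16 in WT at 4 h had an adjusted p of 0.0795, and it was called without WT LPS 4 h replicate 2 (-0.61, adjusted p = 0.0408) and with the stricter filter (adjusted p = 0.0479).

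Of the 6 other CXC ligands listed, 5 were tested. Cxcl11, a further Cxcr3 ligand, rose from 19.3 and 27.7 to 187.4 and 187.7 at 4 h in WT and from 15.6 and 2.5 to 137.8 and 79.1 in KD. These rises of 2.80 ± 0.45 and 3.21 ± 0.45 were called (adjusted p = 0.000137 and 6.13e-05), and the strain difference at 4 h, -0.82 ± 0.45, was not (adjusted p = 0.357). Ppbp, which lies between Cxcl5 and Pf4, was the only other of these ligands called in WT at 4 h. It was at 109.3 and 84.3 without LPS and at 45.5 and 55.9 at 4 h, a fall of 0.87 ± 0.27 (adjusted p = 0.0321). In unstimulated KD cells Ppbp was at 44.3 and 46.1, a log2 difference from WT of -1.02 ± 0.27 (adjusted p = 0.0347). Its KD change at 4 h was 0.01 ± 0.27, not called. The KD minus WT difference of the changes at 4 h, 0.88 ± 0.38, was not called either (limma adjusted p = 0.275). Of 3 receptors tested, Cxcr4, the receptor of Cxcl12, fell by 0.53 ± 0.08 in WT at 4 h (adjusted p = 0.000104), and Cxcr3, the receptor of Cxcl9, Cxcl10 and Cxcl11, fell by 0.94 ± 0.28 (adjusted p = 0.0237). Both also fell in KD at 4 h, Cxcr4 by 0.32 ± 0.08 (adjusted p = 0.0162) and Cxcr3 by 1.32 ± 0.28 (adjusted p = 0.00336). These 2 of 3 stand against 10.2% of probe sets called lower in WT and 4.7% in KD.

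Of 11 NF-κB factors and inhibitors tested, 10 rose in WT at 4 h (against 6.95% of probe sets) and 9 in KD (against 5.3%), and 5 were lower in KD than in WT at 4 h (against 2.24%) and 0 higher. Their response at 4 h was called smaller in KD for 4 of 11, against 3.07% of probe sets in either direction, among them Rel, a subunit of the factor (-1.64 ± 0.37, adjusted p = 0.02), Tnfaip3, the inhibitor A20 (-1.22 ± 0.23, adjusted p = 0.00575), and Nfkbiz, the nuclear cofactor IκBζ (-0.88 ± 0.16, adjusted p = 0.00433). The median strain difference of the list at 4 h was -0.65, beside 0.08 for all probe sets tested. Of 14 genes of the interferon axis tested, 1 was higher (against 3.13%) and 1 lower in KD at 4 h (against 2.24%), and the median strain difference was -0.08. The response at 4 h was called smaller for Irf1, a transcription factor of that axis (-1.53 ± 0.23, adjusted p = 0.00145), whose signals at 4 h were 1801.3 and 1589.9 in WT and 416.7 and 623.4 in KD. At 1 h, 3 of these 14 were higher in KD (against 0.573%) and 1 lower (against 0.533%). LPS raised 7 of the 14 in WT at 4 h (against 6.95% of probe sets) and 6 in KD (against 5.3%). It lowered 1 in WT (against 10.2%) and 1 in KD (against 4.7%). Ifnb1, which encodes interferon-β, stayed at 3.1 to 32.7 on all 12 arrays. Of 7 regulators of chemokine mRNA stability, the strain difference of the 4 h response was called for 1 in each direction, against 3.07%. Zfp36 (tristetraprolin), which promotes decay of such transcripts, had a smaller response at 4 h in KD (-0.82 ± 0.16, limma adjusted p = 0.00863). For its relative Zfp36l1 the KD minus WT difference of the changes was 0.72 ± 0.16 (limma adjusted p = 0.0177). Its WT change was -0.54 ± 0.11, called lower, and its KD change of 0.18 ± 0.11 was not called (limma adjusted p = 0.0018 and 0.403).

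The genes most like each induced member were taken as those with the smallest root mean square (RMS) difference of mean-centred log2 values over the 12 arrays, among 12914 genes. For Cxcl2 these were Pde4b, Socs3, Tnfaip3, Ccrl2 and Tnf (0.392 to 0.496), and for Cxcl1 they were Tnf, Socs3, Cxcl2, Il1b and Pde4b (0.77 to 1.04). For Cxcl3 they were Cd69, Traf1, Ccl7, Nlrp3 and Ccl2 (0.486 to 0.636). Cxcl5 was nearest to Cxcl3 (0.747), followed by Cd40, Il1a, Nlrp3 and Ccl7 (0.956 to 1.05). Cxcl10 was nearest to Mx1, Cmpk2, Ifit1, Rsad2 and Gbp3 (0.288 to 0.595), which are known as interferon-induced genes. For Cxcl9 they were Mycl, Cth, Fchsd2, Rnaset2a and Il15 (0.433 to 0.638). Cxcl9 was not among the 5 nearest genes of Cxcl10, with an RMS difference of 1.32 (rank 98), and Cxcl3 was nearer to Cxcl10 (0.881, rank 22). Cxcl3 was also nearer to Cxcl10 than to Cxcl2 (0.999) or Cxcl1 (1.38). Likewise Cxcl5 was nearer to Cxcl10 (1.43) than to Cxcl2 (1.54) or Cxcl1 (1.61). The values were centred but not scaled, so a distance also reflects the size of each gene's change, and the signals of Cxcl9 were low. On this measure the Cxcr2 ligands were not split from the interferon-linked genes.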

How the data were processed

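The authors deposited a linear intensity for each probe set and array. MAS5 is named in the submitters' processing notes, and its version is not given in the sources. The trimmed mean (2% off each end) was 150 on all 12 arrays, so values were used without rescaling. Gene symbols came from the platform annotation: 34958 probe sets had 1 symbol, 932 several and 9211 none. The gene table (GRCm38.p6) gave names and gene order. The pseudocount of 4.4 is the 20th percentile of all values, and it understates changes of low genes. Probe sets above the array median on at least 2 arrays were tested, with 6 group means and a mean-variance trend (limma 3.58.1, R 4.3.3), in 12 comparisons.

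Each gene was represented by the tested probe set of highest mean, avoiding identifiers that mark cross-hybridising sets. The marker sums instead used the tested probe set of highest mean signal whatever its identifier, or the brightest one where none was tested. A sum and the calls beside it may therefore rest on different probe sets. All members were named. Of other lists, up to 3 called genes with the largest change in the 4 h interaction, or else in WT at 4 h, were named; named members of the marker lists are not all printed. Cxcl11 in KD, Ifnb1, Col1a1, Lum, Thy1 and S100a8 were named after their values were seen. Members and lists were chosen with earlier results of these data known. Alternatives were other scalings, filters, pseudocounts, variance priors, a replicate block and fits without 1 array. The fit was tested on simulated data. Precision is limited by the number of arrays.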

Additional observations from a re-analysis of the deposited data

Results flagged for a closer look

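The response of Cxcl5 to LPS at 1 h was smaller in KD than in WT by a tested interaction of -2.51 on the log2 scale. Its step from 1 h to 4 h was larger in KD, by a tested interaction of 1.85.

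On the representative probe set of Cxcl1 and on that of Cxcl2, both KD arrays at 4 h were below both at 1 h, and both WT arrays at 4 h were above both at 1 h. On the other 2 Cxcl1 probe sets the WT arrays at 1 h and 4 h overlapped. The difference of the steps was -0.68 for Cxcl1 (limma adjusted p = 0.153) and -0.42 for Cxcl2 (adjusted p = 0.496), so neither passed the test of the difference itself.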

How the results depend on the processing

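Results were recomputed with quantile normalization, no filter, a stricter filter (75th percentile), a pseudocount of 1 or of 23.4 (the median of all values), a variance prior without trend, the replicate number as a block, the mean of all probe sets of a gene, and without each of the 12 arrays in turn, where the lone array of a group is assumed to vary like the other groups. Of 108 gene results 44 were called. All 44 kept their direction in each of these 20 settings in which the gene was tested, and 30 kept their call.

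The no-trend prior gave 5 genes called for KD LPS 4 h against unstimulated, 1 for KD against WT at 1 h, 1 at 4 h, and 0 for KD against WT without LPS, for the interaction at 1 h and for the step from 1 h to 4 h. The mean of probe sets gave 5 for KD LPS 4 h against 1 h. The stricter filter gave 2 for KD against WT without LPS, 2 for the interaction at 1 h and 1 for that at 4 h. The median pseudocount gave 2 for each of these interactions (Cxcl3 and Cxcl5 at 1 h, Cxcl2 and Cxcl5 at 4 h), and quantile normalization gave 1 for that at 4 h. Leaving out single arrays gave 3 to 5 genes for KD LPS 4 h against 1 h, 0 to 2 for KD against WT without LPS, 1 to 2 for the interaction at 1 h, 0 to 3 for that at 4 h and 0 to 2 for the step from 1 h to 4 h. Over all probe sets, the no-trend prior called 17 in place of 309 for KD against WT at 1 h, 504 in place of 1500 at 4 h, and 0 in place of 91 for the interaction at 1 h.

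Values that changed sign (35 in all) were all of results that were not called. The mean of probe sets gave 0.046 for Cxcl14 in WT LPS 1 h against WT unstimulated, 0.015 for Cxcl12 in WT LPS 4 h against WT LPS 1 h, 0.075 for Cxcl14 in KD LPS 1 h against KD unstimulated, 0.15 for Cxcl12 in KD LPS 4 h against KD LPS 1 h, 0.0021 for Cxcl14 in KD LPS 1 h against WT LPS 1 h, 0.029 for Cxcl14 in the 1 h interaction. Quantile normalization gave -0.11 for Cxcl10 in KD unstimulated against WT unstimulated, 0.010 for Cxcl14 in KD unstimulated against WT unstimulated, -0.14 for Cxcl9 in KD LPS 1 h against WT LPS 1 h, 0.039 for Cxcl16 in KD LPS 1 h against WT LPS 1 h. A pseudocount of 1 gave -0.15 for Cxcl9 in KD LPS 1 h against WT LPS 1 h. The median pseudocount gave -0.22 for Cxcl9 in the 4 h interaction. Without single arrays, Cxcl14 in WT LPS 1 h against WT unstimulated ran from -0.23 to 0.056, Cxcl12 in KD LPS 4 h against KD LPS 1 h ran from -0.37 to 0.13, Cxcl14 in KD LPS 4 h against KD LPS 1 h ran from -0.30 to 0.026, Cxcl1 in KD unstimulated against WT unstimulated ran from -0.59 to 0.027, Cxcl2 in KD unstimulated against WT unstimulated ran from -0.13 to 0.43. Likewise, Cxcl10 in KD unstimulated against WT unstimulated ran from -0.19 to 0.26, Cxcl12 in KD unstimulated against WT unstimulated ran from -0.77 to 0.22, Cxcl14 in KD unstimulated against WT unstimulated ran from -0.17 to 0.12, Cxcl9 in KD LPS 1 h against WT LPS 1 h ran from -1.08 to 1.19, Cxcl16 in KD LPS 1 h against WT LPS 1 h ran from -0.085 to 0.067. In addition, Cxcl14 in KD LPS 4 h against WT LPS 4 h ran from -0.072 to 0.30, Cxcl1 in the 1 h interaction ran from -0.18 to 0.44, Cxcl2 in the 1 h interaction ran from -0.51 to 0.048, Cxcl10 in the 1 h interaction ran from -0.015 to 0.44, Cxcl14 in the 1 h interaction ran from -0.20 to 0.083. Likewise, Cxcl14 in the 4 h interaction ran from -0.047 to 0.32.

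Replicate numbers did not pair the arrays: the correlation of deviations between same-numbered arrays was -0.07 to 0.04 over 15 pairs of groups. With the replicate block, the count for KD LPS 4 h against 1 h was 4 in place of 3, since Cxcl1 (-0.44) reached an adjusted p of 0.0484, and the other 11 counts stayed at their values.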
